A study of Homo sapiens with 12 samples.

Results

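The genes described here belong to the family of proteins that read methylated CpG in DNA, though not every member binds it. They are the methyl-CpG binding domain (MBD) genes MBD1, MBD2, MBD3, MBD4, MBD5 and MBD6, and the methyl-binding zinc finger genes ZBTB33, ZBTB38 and ZBTB4. The family was set by function and not by measured values, though with earlier results of these data known. Each symbol was joined by Ensembl identifier. It holds 9 genes of the 60483 in the count table, and all 9 were among the 17175 genes that passed the filter on low counts.

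RNA was sequenced from HUDEP-2 cells, an immortalized human erythroid progenitor line derived from umbilical cord blood. Control cells are labelled sgSCR with a WT genotype, and knockout cells are labelled MBD2KO with the genotype MBD2-/-. Each genotype was sampled in expansion medium (early basophilic erythroblasts per the labels) and after a switch to differentiation medium (late basophilic erythroblasts), with 3 libraries in each of the 4 groups. SCF and DEX were given only during expansion, while human AB serum, insulin, heparin and holo-transferrin belong to the differentiation medium. EPO, DOX and glutamine were in both media, for both genotypes. The time in differentiation medium is 3 days in the extraction protocol and 5 days in the growth protocol. The labels do not say whether the knockout cells were a clone or a pool, nor whether the 3 libraries of a group came from separate cultures, so the p-values below reflect the variation among libraries, which may be technical.

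DNA methylation at CpG is read in mammals by proteins with an MBD domain and by zinc finger proteins of the Kaiso family. MBD2 binds methylated CpG and brings in the NuRD complex, which joins histone deacetylases to a chromatin remodeler. MBD3 is the alternative subunit of NuRD and binds methylated DNA poorly, and a NuRD complex holds either MBD2 or MBD3. In erythroid cells MBD2 is best known as a factor needed to keep the fetal gamma-globin genes silent.

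CpG, the dinucleotide by which the family is defined, was counted in the members' own promoter windows. RefSeq lists 19 starts for the 9 genes, 10 of them for ZBTB38, in windows of 300 bases (250 before and 50 after a start, build GRCh38.p14). MBD5 had 2 starts, with 20 and 14 CpG. The 7 genes with 1 listed start held 27 to 40 CpG per window, against a median of 14 over 35116 windows. The MBD2 window held 32 CpG, a number reached by 18.9% of all windows, and that of MBD1 held 27, reached by 28.2%. The 10 windows of ZBTB38 held 0 to 35 CpG, with fewer than 10 in 7 of them. Over all windows, 70.4% held at least 5 CpG and 51.7% at least 13. The bases upstream of the annotated gene are shown for the members on chromosome 18, which were lower in knockout cells, and for ZBTB4, which was higher after differentiation. Each runs 5′ to 3′ on the minus strand, with CpG in capitals. The MBD2 stretch (chr18:54224789-54224919) holds 8 of the 32 CpG of its window, the rest of which reaches into the annotated gene. The MBD1 stretch (chr18:50281775-50282017) holds 22 and the ZBTB4 stretch (chr17:7484264-7484499) holds 26.
MBD2: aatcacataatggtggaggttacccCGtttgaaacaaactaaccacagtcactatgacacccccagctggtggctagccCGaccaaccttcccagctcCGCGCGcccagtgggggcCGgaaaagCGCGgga
MBD1: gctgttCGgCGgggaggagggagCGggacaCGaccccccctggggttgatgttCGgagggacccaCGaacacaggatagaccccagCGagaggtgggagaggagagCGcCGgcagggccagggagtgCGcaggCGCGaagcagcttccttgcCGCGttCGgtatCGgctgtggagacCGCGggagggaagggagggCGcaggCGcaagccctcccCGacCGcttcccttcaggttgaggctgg
ZBTB4: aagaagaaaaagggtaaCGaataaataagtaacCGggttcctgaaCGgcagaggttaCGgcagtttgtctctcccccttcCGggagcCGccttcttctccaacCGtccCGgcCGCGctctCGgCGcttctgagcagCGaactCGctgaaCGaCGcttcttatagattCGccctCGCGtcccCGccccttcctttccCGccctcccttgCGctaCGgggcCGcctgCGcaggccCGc
The sequence TCCTGCNA, the unmethylated element of Kaiso, was found on either strand in 1 of the 19 windows and in 4.69% of all windows. The GATA factor element AGATAA was found in 1 of the 19 windows and in 10.3% of all windows. The windows with a match were 2 different starts of ZBTB38. These counts describe letters in the windows and are not evidence of binding, and methylation was not analysed here.

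In hg38, as the count table gives them, MBD1 (ENSG00000141644.16) spans 50266882 to 50281774 on the minus strand of chromosome 18. MBD4 (ENSG00000129071.8) spans 129430944 to 129440179 on the minus strand of chromosome 3. MBD5 (ENSG00000204406.10) spans 148021011 to 148516971 on the plus strand of chromosome 2, and MBD6 (ENSG00000166987.13) spans 57520710 to 57530148 on the plus strand of chromosome 12. ZBTB33 (ENSG00000177485.6) spans 120250752 to 120258398 on the plus strand of chromosome X. ZBTB38 (ENSG00000177311.9) spans 141324213 to 141449792 on the plus strand of chromosome 3, and ZBTB4 (ENSG00000174282.10) spans 7459366 to 7484263 on the minus strand of chromosome 17. Exon bases shared with a gene on the opposite strand made up 4.29% of MBD4 (with IFT122), 1.09% of MBD5 (with ORC4) and 0.832% of MBD6 (with DCTN2). Reads there cannot be told apart from those of the partner gene.

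Library depth ran from 7667997 to 14047498 counts of read pairs. The 9 erythroid markers checked were above 1 CPM (counts scaled to library size) in all 12 libraries, so the labelled cell type held. Their summed level was 7249 to 7748 CPM in control and 7489 to 8887 CPM in knockout libraries before differentiation, and 8408 to 8970 against 15772 to 16050 CPM after it. Lists of 5 markers each were checked for other cell types. Lymphoid and stromal markers stayed at or below 1.71 CPM in sum, with CD3E at 0 in all libraries. Mast cell and basophil markers summed to 87.96 to 107 CPM in control and 16.3 to 18.2 CPM in knockout libraries before differentiation, and to 14.8 to 17.6 and 2.58 to 5.04 CPM after it. Megakaryocyte markers summed to 26.1 to 29.8 against 35.9 to 56.7 CPM before and 11.2 to 13.5 against 11.2 to 11.6 CPM after differentiation, with PPBP at 0 in all libraries. Neutrophil and monocyte markers summed to 5.35 to 7.45 against 11.4 to 11.8 CPM before and 1.69 to 2.18 against 1.72 to 2.25 CPM after it. Ribosomal RNA took 1.72 to 2.77% of counts in knockout libraries after differentiation and 0.403 to 1.36% elsewhere. The part of these differences in the results below was not tested. In bulk RNA, fewer cells with a transcript and less transcript per cell cannot be told apart.

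The targeted gene was lower in every knockout library. MBD2 (ENSG00000134046.10, hg38, chromosome 18, 54151601 to 54224788, minus strand) held 791 to 1147 counts in control and 221 to 315 in knockout libraries before differentiation. After it the counts were 553 to 813 in control and 104 to 150 in knockout libraries. In scaled counts MBD2 fell 3.45-fold before differentiation, from 77.2 ± 1.74 to 22.4 ± 2.36 CPM (SD, n = 3). After differentiation it fell 3.75-fold, from 59.6 ± 1.66 to 15.8 ± 1.10 CPM. By edgeR the log2 changes were -1.79 ± 0.08 (SE, adjusted p = 1.06e-10) and -1.91 ± 0.09 (adjusted p = 5.68e-11). The groups did not overlap at either stage, and the knockout effects did not differ detectably between stages (difference -0.12, 95% interval -0.37 to 0.13). A gene-level count cannot say whether the remaining reads come from transcripts that still encode protein.

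**Figure D1:**
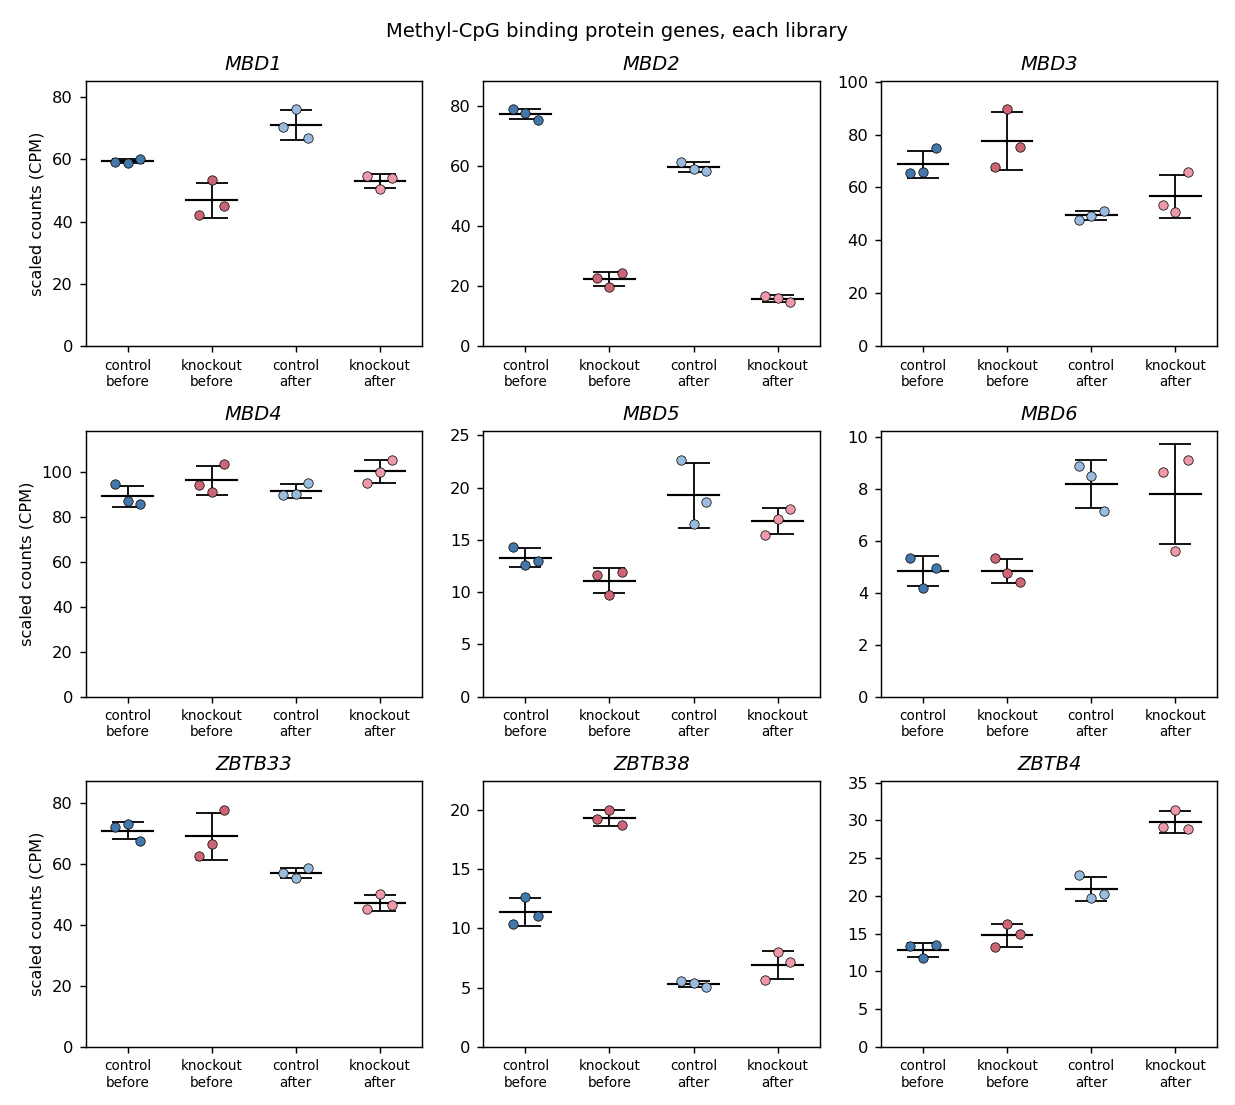
Level of each of the 9 genes in every library, as CPM (counts scaled to library size, linear axis from 0, own scale per panel); points are libraries, horizontal lines means and bars the SD over 3 libraries. MBD2 sits at 58.2 to 78.7 CPM in control and 14.6 to 24.5 CPM in knockout libraries.

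The members differed widely in level per length, given as RPKM (scaled counts per kilobase of exon). MBD4, a DNA glycosylase that removes thymine or uracil mispaired with guanine at CpG sites, stood highest in all 4 groups, from 26.6 ± 1.43 RPKM in control cells before differentiation to 29.9 ± 1.54 in knockout cells after it. In control cells before differentiation ZBTB33 (13.4 ± 0.544 RPKM) and MBD2 (13.3 ± 0.299) came next and overlapped. MBD1 (8.83 ± 0.0945) and MBD3 (8.76 ± 0.670) followed and also overlapped. ZBTB4 stood apart at 2.13 ± 0.153 RPKM. MBD5 (0.927 ± 0.0648), MBD6 (0.856 ± 0.103) and ZBTB38 (0.830 ± 0.0847) were lowest, and neighbours among these 3 overlapped. In control cells after differentiation ZBTB33, MBD1 and MBD2 lay between 9.91 and 11.3 RPKM, with each overlapping the next, and ZBTB38 was lowest at 0.388 ± 0.0179. In knockout cells MBD2 was in place 5 before differentiation (3.85 ± 0.406 RPKM), below MBD1 and above ZBTB4. After it MBD2 was in place 6 (2.73 ± 0.190), below ZBTB4 at 4.94 ± 0.238, and neither place overlapped its neighbours.

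**Figure D2:**
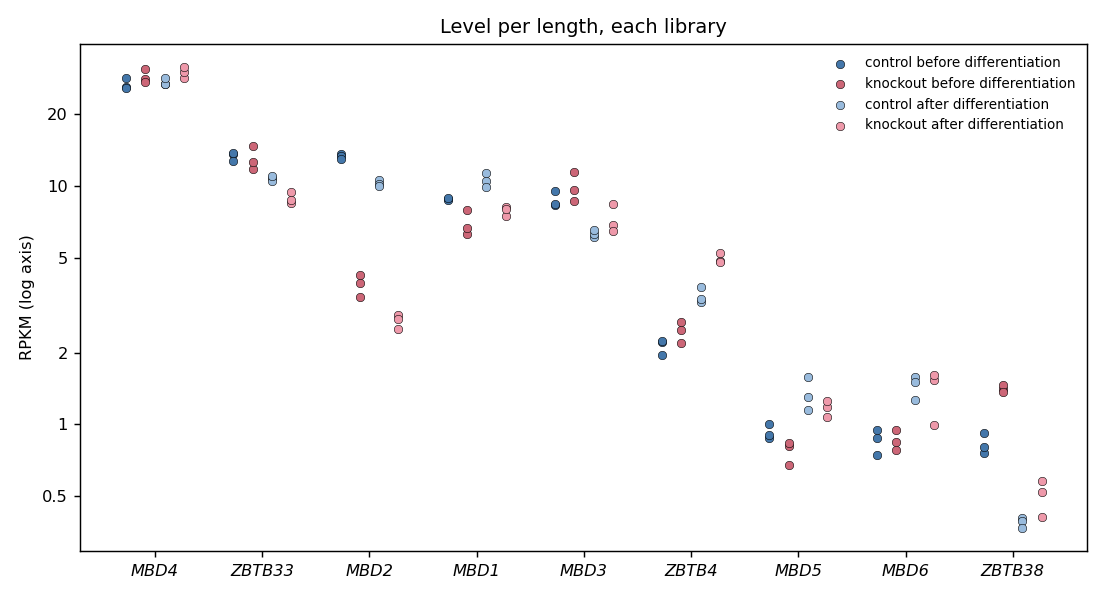
RPKM of each member on a log axis, ordered by the mean in control cells before differentiation; each point is a library and colours mark the 4 groups. MBD4 lies above all other members in every group, and MBD2 drops below MBD3 and MBD1 in knockout libraries.

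The order of the alternative NuRD subunits was reversed in knockout cells. The ratio of MBD2 to MBD3 in RPKM was 1.63, 1.59 and 1.36 in control libraries before differentiation. It was 0.453, 0.300 and 0.439 in the knockout libraries. After differentiation it was 1.74, 1.62 and 1.53 in control and 0.423, 0.431 and 0.299 in knockout libraries. By RPKM, MBD2 was above MBD3 in 6 of 6 control libraries and below it in 6 of 6 knockout libraries. RPKM divides by all annotated exon bases (5810 for MBD2, 7845 for MBD3), which can differ from the length of the transcripts present. The size of the ratios depends on that divisor. In scaled counts alone the order was the same. The margin was small in control replicate 3 before differentiation, with 75.3 CPM of MBD2 and 74.7 CPM of MBD3. Summed over the 9 genes, RPKM ranged from 74.6 to 77.4 in control and 64.1 to 71.5 in knockout libraries before differentiation. After it the sum was 71.4 to 72.3 in control and 62.6 to 67.4 in knockout libraries. MBD2 made up 17.6 ± 0.262% of the sum in control and 5.67 ± 0.582% in knockout cells before differentiation, and 14.3 ± 0.407% and 4.23 ± 0.448% after it (SD, n = 3).

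MBD3 itself (ENSG00000071655.16, chromosome 19, 1573596 to 1592801, minus strand) was 65.3, 66.0 and 74.7 CPM in the control group before differentiation. Its knockout libraries held 67.8, 89.4 and 75.4 CPM. The groups overlapped, and the log2 change was 0.17 (95% interval -0.04 to 0.39, adjusted p = 0.286 by edgeR). After differentiation the control libraries held 47.7, 49.3 and 51.3 CPM of MBD3, beside 53.6, 50.6 and 65.9 CPM with the knockout. That log2 change was 0.19 (95% interval -0.04 to 0.42, adjusted p = 0.192 by edgeR). MBD3 shares 915 of its 7845 exon bases with other genes, 767 of them on the same strand and 148 on the opposite strand, and reads there cannot be told apart from those of the other genes.

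Knockout and control cells were compared across the family before differentiation. MBD2 and MBD1 fell, ZBTB38 rose, and 6 of the 9 members did not pass the test (adjusted p under 0.05 by edgeR over all genes tested). Of all genes tested 17.2% were called, 9.07% higher and 8.15% lower. Groups did not overlap for 4 of the 9 members, against 30.7% of all genes. The members' median log2 change was 0.02, beside -0.0043 over all genes.

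MBD1, which binds methylated CpG and works with the histone methyltransferase SETDB1, was 59.2, 59.0 and 60.2 CPM in control libraries before differentiation. In knockout libraries it was 42.3, 53.3 and 45.1 CPM, each below every control library. Its log2 change was -0.34 ± 0.08 (adjusted p = 0.00729 by edgeR). ZBTB38, a BTB zinc finger protein of the Kaiso family, stood at 10.4, 12.7 and 11.0 CPM in the control group. With the knockout it stood at 19.3, 20.03 and 18.7 CPM. ZBTB38 rose 1.69-fold, a log2 change of 0.76 ± 0.12 (adjusted p = 2.23e-04 by edgeR), and all 3 knockout libraries were above the highest control. ZBTB38 shared no exon bases with another gene.

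After differentiation the comparison was repeated in libraries that share none with the earlier stage. MBD2, MBD1 and ZBTB33 fell, ZBTB4 rose, and 5 of the 9 members did not pass the test. Of all genes tested 33.1% were called, 16.8% higher and 16.3% lower, and the groups did not overlap for 46.7% of genes and for 5 of the 9 members. The members' median log2 change was -0.09, beside -0.0091 over all genes.

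MBD1 stood at 70.3, 76.0 and 66.7 CPM in controls after differentiation and at 54.7, 50.5 and 54.1 CPM with the knockout, again without overlap (log2 change -0.42 ± 0.08, adjusted p = 7.75e-04 by edgeR). ZBTB4, a zinc finger repressor that binds methylated CpG, stood at 22.8, 19.7 and 20.3 CPM in controls and at 29.1, 31.4 and 28.8 CPM with the knockout. ZBTB4 rose 1.43-fold, a log2 change of 0.51 ± 0.10 (adjusted p = 8.79e-04 by edgeR). ZBTB33, known as Kaiso, stood at 57.2, 55.5 and 58.7 CPM in controls and at 45.1, 50.1 and 46.5 CPM with the knockout. ZBTB33 fell by 0.27 ± 0.08 on the log2 scale (adjusted p = 0.0172 by edgeR). Its call ended without control replicate 3 (adjusted p = 0.0545) or knockout replicate 1 (adjusted p = 0.0771).

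After differentiation ZBTB38 stood at 5.53, 5.38 and 5.05 CPM in controls and at 5.63, 7.96 and 7.17 CPM with the knockout. It was thinly covered at this stage, with 48 to 74 counts per library. The groups did not overlap, but the log2 change of 0.38 (95% interval 0.05 to 0.71) did not pass the test (adjusted p = 0.0728 by edgeR). Its knockout replicate 1 lay close to the control libraries, and without that library the change was 0.51 (adjusted p = 0.0243).

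**Figure D3:**
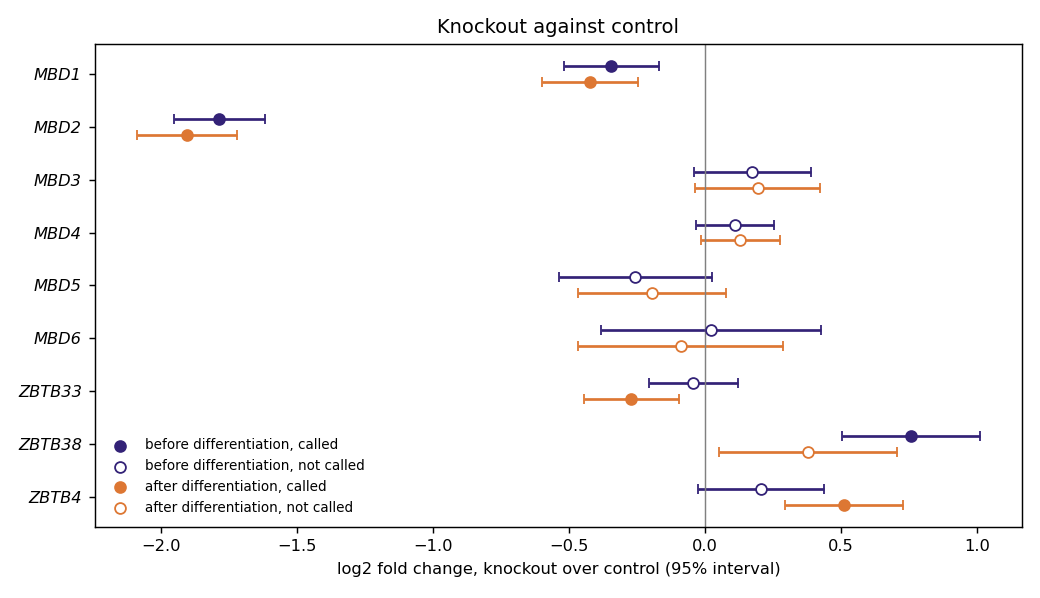
Log2 fold change of knockout over control for each member, before (blue) and after (orange) differentiation, with 95% intervals from the edgeR fit; filled points passed an adjusted p under 0.05. MBD2 lies near -1.8 to -1.9, MBD1 near -0.34 to -0.42, and the intervals of MBD3, MBD4, MBD5 and MBD6 include 0.

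MBD4, MBD5 and MBD6 gave no call in either knockout comparison. MBD4 was 86.1 to 94.8 CPM in control and 91.3 to 104 CPM in knockout libraries before differentiation (log2 change 0.11, 95% interval -0.03 to 0.25). After it MBD4 was 90.0 to 95.5 and 95.4 to 106 CPM (log2 change 0.13, 95% interval -0.02 to 0.27). MBD5 and MBD6 keep an MBD domain but bind the PR-DUB deubiquitinase complex and not methylated DNA. MBD5 was 12.6 to 14.4 CPM in control and 9.70 to 11.9 CPM in knockout libraries before differentiation, without overlap but with no call (log2 change -0.26, adjusted p = 0.217 by edgeR). MBD5 overlapped after differentiation (log2 change -0.20, 95% interval -0.47 to 0.08). MBD6 was thinly covered, with 49 to 117 counts per library. Its log2 changes of 0.02 (95% interval -0.38 to 0.43) and -0.09 (95% interval -0.47 to 0.29) leave room for moderate change in either direction.

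No member's knockout effect differed between the stages by the interaction contrast (0 of 9 by edgeR, 0 at an unadjusted p under 0.05, and 0 by DESeq2), against 13% of all genes (6.28% higher and 6.68% lower). The smallest adjusted p was 0.206, for ZBTB4, whose effect was 0.31 larger after differentiation (95% interval -0.01 to 0.62). For ZBTB38 the effect was 0.38 smaller after differentiation (difference -0.38, 95% interval -0.80 to 0.04). For ZBTB33 the difference was -0.23 (95% interval -0.47 to 0.01). A call at one stage and not at the other is thus not a shown difference for these 3 zinc finger genes.

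MBD1 and MBD2 lie on chromosome 18, 3.87 Mb apart, where many genes were lower in knockout libraries. Without these 2 members, 263 tested genes of the chromosome had a median log2 change of -0.48 before differentiation, and 147 of them were called lower and 5 higher. After differentiation the median was -0.38, with 113 lower and 13 higher. The medians over 16903 genes of all other chromosomes were -0.0011 and -0.0033. Minus the chromosome's median, the log2 change of MBD1 was 0.14 before and -0.04 after differentiation. That of MBD2 was -1.31 before and -1.52 after it. Counted from the lowest of the 265 tested genes, MBD2 was in place 6 before and place 5 after differentiation, and MBD1 in places 178 and 116. How much of the MBD1 and MBD2 changes is shared with the chromosome was not tested.

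The nearest tested protein-coding neighbours were examined on each side of MBD1 and MBD2, 12 genes in all. Before differentiation 10 of these 12 fell and 0 rose (median log2 change -0.52), and after differentiation 5 fell and 2 rose (median -0.22). Of the chromosome's 263 tested genes without MBD1 and MBD2, 55.9% were called lower and 5 higher before differentiation (median -0.48). After it 43.0% were lower and 13 higher (median -0.38). Over all genes tested 8.15% and 16.3% were called lower, and 9.07% and 16.8% higher. CXXC1, which binds unmethylated CpG and lies 0.569 kb from MBD1, fell at both stages, with log2 changes of -0.37 ± 0.09 (adjusted p = 0.00964 by edgeR) and -0.63 ± 0.10 (adjusted p = 7.15e-05). On the other side of MBD1, CFAP53 at 0.36 kb was not called (log2 changes -0.23 and 0.75). The motor protein gene MYO5B was not called before differentiation (0.39) and rose after it (1.49 ± 0.18). ACAA2, a thiolase of fatty acid oxidation, fell before differentiation (-0.29 ± 0.07, adjusted p = 0.00551 by edgeR) and rose after it (0.29 ± 0.07, adjusted p = 0.00561). The malic enzyme gene ME2 fell at both stages (-0.57 ± 0.07 and -1.03 ± 0.08). SKA1, of the outer kinetochore, fell before differentiation (-0.43 ± 0.07) and was not called after it (-0.01 ± 0.07).

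Near MBD2, the gene of the Rab GTPase RAB27B at 493 kb fell at both stages, with log2 changes of -2.83 ± 0.32 (adjusted p = 6.17e-06 by edgeR) and -2.26 ± 0.67 (adjusted p = 0.0152). These changes were larger than the -1.79 and -1.91 of MBD2 itself, and the difference was not tested. RAB27B was thinly covered, with a mean log2 CPM of 0.39 over the 12 libraries, beside 5.17 for MBD2. POLI, a translesion DNA polymerase gene 44.6 kb from MBD2, fell before differentiation (-0.58 ± 0.10) and was not called after it (-0.22, adjusted p = 0.098 by edgeR). C18orf54 at 133 kb fell at both stages, by 0.81 and 0.69 on the log2 scale. SMAD4, the common mediator of TGF-beta signalling, lies 3067 kb from MBD2, fell before differentiation (-0.48 ± 0.07) and was not called after it (-0.04 ± 0.07). MEX3C at 2933 kb fell at both stages (-0.67 ± 0.06 and -0.37 ± 0.06). ELAC1 at 3163 kb fell before differentiation (-0.79 ± 0.18) and was not called after it (-0.23 ± 0.18).

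**Figure D4:**
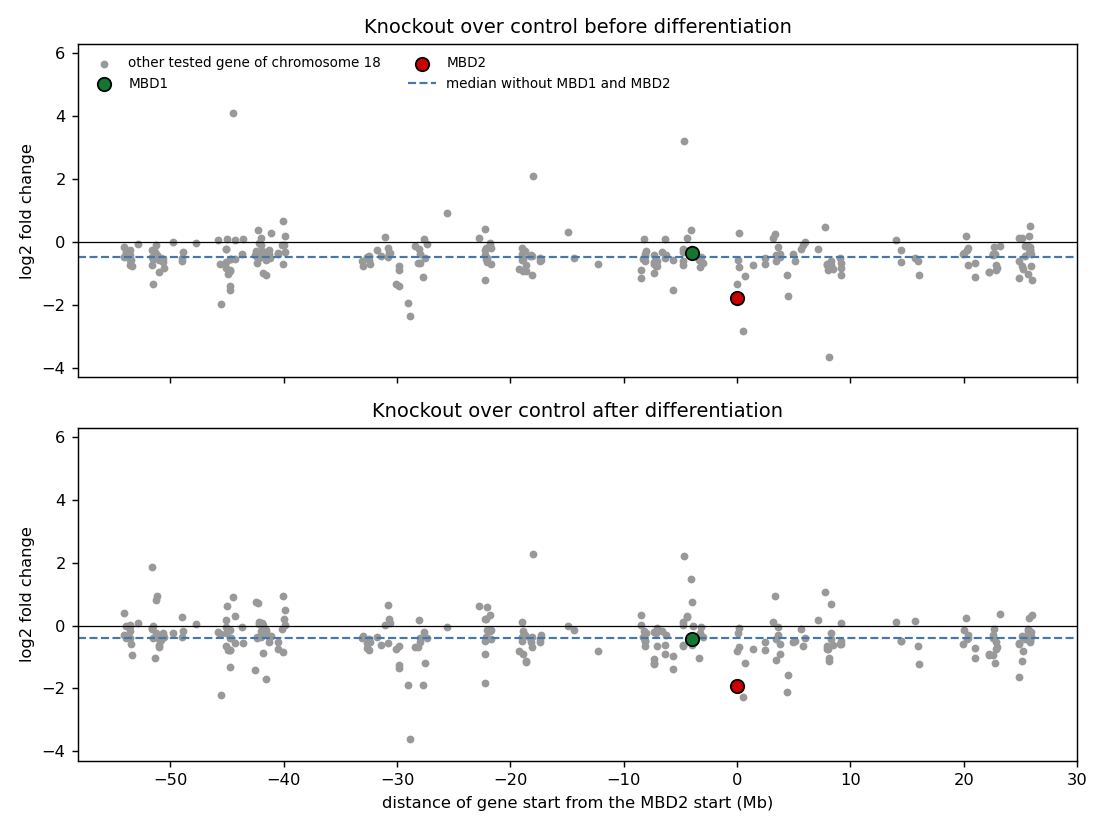
Log2 fold change of knockout over control for each tested gene of chromosome 18 against the distance of its start from that of MBD2 in megabases, before (top) and after (bottom) differentiation; the dashed line is the median without MBD1 and MBD2. MBD1 (green) lies near the dashed line and MBD2 (red) lies well below it, at -1.31 and -1.52 relative to the line.

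Outside chromosome 18, 7 members were measured. Of these ZBTB38 was called before differentiation, and ZBTB33 and ZBTB4 were called after it, in opposite directions. These calls stand beside 17.2% of all genes tested called before and 33.1% after differentiation. MBD2 loss and the changes of ZBTB38, ZBTB33 and ZBTB4 were seen in the same knockout cells. Any other difference between the knockout and control lines cannot be told apart from the knockout itself.

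Differentiation itself moved most of the family in control cells. MBD1, MBD5, MBD6 and ZBTB4 rose, and MBD2, MBD3, ZBTB33 and ZBTB38 fell, with MBD4 not called. These 8 of 9 stand beside 43.8% of all genes called (21.5% higher and 22.3% lower). Groups did not overlap for 8 members, against 54.1% of all genes, and the median log2 change was 0.04 for the members and 0.0058 for all genes. ZBTB38 had the widest change, from 11.4 ± 1.16 to 5.32 ± 0.245 CPM, a fall of 1.10 on the log2 scale (adjusted p = 6.86e-06 by edgeR). MBD6 rose from 4.83 ± 0.584 to 8.19 ± 0.916 CPM (0.78 ± 0.18), ZBTB4 from 12.8 ± 0.920 to 20.9 ± 1.64 CPM (0.71 ± 0.11), and MBD5 from 13.3 ± 0.930 to 19.3 ± 3.12 CPM (0.53 ± 0.13). MBD2 fell by 0.37 ± 0.07 (adjusted p = 5.67e-04), MBD3 by 0.47 ± 0.11 and ZBTB33 by 0.32 ± 0.08. MBD1 rose by 0.26 ± 0.08 (adjusted p = 0.0155 by edgeR). The MBD1 call ended without control replicate 2 of either stage (adjusted p = 0.0518 without that before and 0.092 without that after differentiation).

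In knockout cells the same 4 genes fell with differentiation and 3 rose. MBD2 fell further, by 0.49 ± 0.09 (adjusted p = 2.37e-04 by edgeR), from an already low level. ZBTB38 fell by 1.48 ± 0.13, from 19.3 ± 0.651 to 6.92 ± 1.19 CPM. ZBTB4 rose by 1.01 ± 0.11, from 14.8 ± 1.53 to 29.8 ± 1.43 CPM, and MBD5 and MBD6 rose by 0.60 ± 0.13 and 0.67 ± 0.19. MBD1 was 0.18 (95% interval 0.0025 to 0.36, adjusted p = 0.079 by edgeR) and MBD4 was 0.06, neither called. The 7 of 9 called stand beside 55.7% of all genes (28.0% higher and 27.7% lower), the groups did not overlap for 7 members against 60.0% of all genes, and the medians were 0.06 for the members and 0.028 for all genes. Control and knockout cells share no library in these 2 comparisons, and their difference is the interaction contrast given above, in which no member was called.

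**Figure D5:**
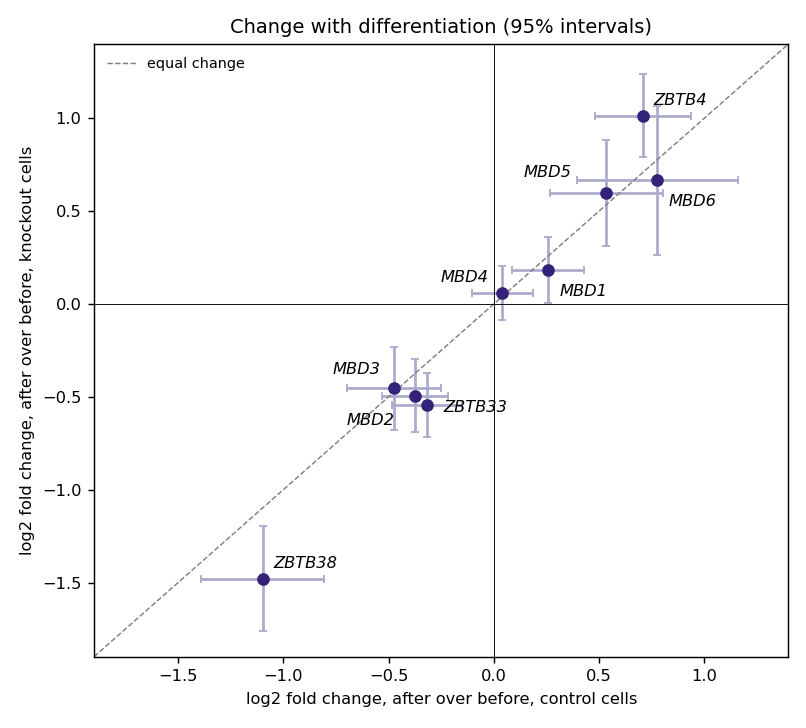
Log2 fold change with differentiation (after over before) for each member, control cells on the horizontal and knockout cells on the vertical axis, with 95% intervals from the edgeR fit; the dashed line marks equal change. ZBTB38 lies lowest at -1.10 and -1.48, and ZBTB4 highest in knockout cells at 1.01.

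Genotype and stage comparisons share libraries, so their values are only set side by side. ZBTB4 rose with differentiation and was higher in knockout cells after it. ZBTB33 fell with differentiation and was lower in knockout cells after it. ZBTB38 fell with differentiation and was higher in knockout cells before it. MBD1 rose with differentiation in control cells and was lower in knockout cells at both stages.

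Genes with the pattern most like each called member were sought among 9602 other protein-coding genes. Likeness was the root mean square difference of centred log2 CPM over the 12 libraries, on the log2 scale. For MBD2 these were CPNE4 (0.27, Pearson r = 0.961), GCSAML (0.28, r = 0.958) and GSAP (0.29, r = 0.952), none on chromosome 18. For MBD1 they were PLXND1 (0.10, r = 0.946), TRAF3IP1 (0.10, r = 0.929) and TESMIN (0.10, r = 0.924). For ZBTB38 they were AASS (0.13, r = 0.992), the zinc transporter SLC39A14 (0.15, r = 0.977) and the activin receptor ACVR2B (0.19, r = 0.965). For ZBTB33 they were CD164, TSN and TMEM126A (0.06 each, r = 0.975, 0.973 and 0.968). For ZBTB4 they were the cyclin CCND2, the 14-3-3 protein YWHAH and TSC22D2 (0.11 each, r = 0.976, 0.974 and 0.972). These values describe 12 libraries in 4 groups and carry no test.

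Partners of the members were read from lists chosen by known function, with percentages called over all genes as given above. Among the 13 NuRD subunits other than MBD2 and MBD3, 1 rose and 0 fell before differentiation, and 0 rose and 5 fell after it (medians 0.04 and -0.16). CDK2AP1 rose before (0.34 ± 0.11) and fell after it (-0.40 ± 0.13). The other genes that fell after differentiation were MTA3 (-1.40 ± 0.19), the remodelers CHD3 (-0.25 ± 0.08) and CHD4 (-0.19 ± 0.06), and RBBP7 (-0.16 ± 0.06), the last named after its value was seen. DESeq2 called 0 of the 13 before differentiation and 5 after it. The 5 partners of MBD1 gave 1 call at each stage, ATF7IP2, which rose by 0.23 ± 0.08 before and 0.29 ± 0.07 after differentiation (list medians 0.21 and 0.11). DESeq2 called 0 of the 5 before differentiation. SETDB1 was -0.14 and -0.21, not called.

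Among 9 base excision repair genes, the pathway of MBD4, 0 were called before differentiation by edgeR (1 at an unadjusted p under 0.05, 0 by DESeq2) and 2 rose after it (medians 0.05 and -0.07). These were TDG, the other glycosylase for thymine mispaired with guanine (0.31 ± 0.08), and the endonuclease APEX1 (0.28 ± 0.09). Of 8 tested PR-DUB genes (9 listed), 1 rose and 1 fell before differentiation and 2 rose after it (medians 0.06 and -0.03). The deubiquitinase BAP1 rose at both stages (0.33 ± 0.09 and 0.48 ± 0.09), its cofactor ASXL1 rose after differentiation (0.58 ± 0.07), and the demethylase KDM1B fell before it (-0.25 ± 0.07). Of 10 corepressors and partners of the zinc finger members, 2 rose before differentiation and 0 were called after it by edgeR (2 at an unadjusted p under 0.05, 0 by DESeq2), with medians of -0.02 and 0.03. The risers were CTNND1, the p120 catenin that binds Kaiso (0.34 ± 0.07), and CTBP2 (0.25 ± 0.07).

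Genes listed by a related domain or name were compared as well, whether or not their proteins read CpG. Of 9 further genes listed as MBD-domain or MBD3-like, 4 were tested, and the MBD3-like genes did not pass the filter on low counts. SETDB2 fell before differentiation (-0.25 ± 0.08, adjusted p = 0.0411 by edgeR) and the nucleolar remodeling subunit BAZ2A rose after it (0.33 ± 0.09, adjusted p = 0.0106). DESeq2 called 0 of the 4 before differentiation and 1 after it. The list medians were -0.08 at both stages. Of the 2 SRA-domain readers, UHRF1, which brings the maintenance methyltransferase to hemimethylated CpG, rose at both stages (0.42 ± 0.09 and 0.44 ± 0.10). UHRF2 rose after differentiation (0.24 ± 0.08). Erythroid marker levels were also higher in knockout libraries after differentiation, as given above, and their part in these changes was not tested.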

How the data were processed

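The values used are raw counts per gene, as deposited. Read pairs were assigned to exons with featureCounts 1.4.6-p4 in GENCODE release 22 on hg38, with no strand option, per the file headers, although the labels' protocol names a stranded kit. The submitters' processing notes list featureCounts 1.2.6, Subread 1.6.2, edgeR 3.18.1, Trimmomatic and FastQC. Symbols came from GENCODE 29 by identifier (56753 of 60483 genes).

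Genes were filtered with filterByExpr, scaled with TMM and fitted in edgeR 4.0.16 (R 4.3.3) with a group-means model over 12 libraries. Contrasts used the two-sided quasi-likelihood F-test with Benjamini-Hochberg adjustment over 17175 genes. A standard error is the log2 change divided by the square root of F. CPM and RPKM use TMM-scaled library sizes and the table's exon lengths. With 3 libraries a side, the smallest exact permutation p is 0.1. The pipeline was tested on simulated data. Alternatives were DESeq2 1.42.0, other scalings, no filter, smaller fits, a replicate block and leaving out each library. Members, lists and the naming rule (all members, 3 closest patterns, 3 neighbours per side, up to 4 called genes per list) were chosen with earlier results of these data known. Same-group libraries differed beyond sampling noise.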

Additional observations from a re-analysis of the deposited data

How the results depend on the processing

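Over 45 member results (9 genes in 5 comparisons) and 18 or 19 alternatives each, 811 of 846 values kept their direction and their side of the threshold, 6 lost a call, 4 gained one and 25 changed sign; no called value changed sign. MBD2 ranged from -1.86 to -1.71 before and from -2.07 to -1.86 after differentiation. The calls lost were those of ZBTB33 and MBD1 given above, with MBD1 in control differentiation also lost with library sizes only (0.21, adjusted p = 0.0583 by edgeR) and without the filter (0.23, adjusted p = 0.0527). Of 9 members, 3 were called before differentiation under every alternative and 3 to 5 after it.

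With library sizes only, the median of all genes after differentiation moved to -0.17 in knockout against control. Relative to that shift ZBTB33 was -0.26, ZBTB4 0.52, MBD4 0.14 (unshifted -0.028) and MBD5 -0.19 (unshifted -0.35, then called, adjusted p = 0.0459 by edgeR). That setting also called 1 member in the interaction, ZBTB33 (-0.36, adjusted p = 0.0487), where the shift was -0.15. It turned these uncalled values: MBD6 before differentiation (-0.0027), MBD4 with differentiation in control (-0.0091) and knockout cells (-0.12), MBD1 with differentiation in knockout cells (-0.0038), and in the interaction MBD3 (-0.11), MBD4 (-0.11) and MBD5 (-0.073). Without the filter the interaction gave -0.0059 for MBD3 and -0.0061 for MBD4.

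Leaving out 1 library at a time, the uncalled values that changed sign ranged from -0.085 to 0.096 for MBD6 and -0.14 to 0.016 for ZBTB33 before differentiation, and -0.21 to 0.11 for MBD6 after it. In the interaction they ranged from -0.14 to 0.030 for MBD1, -0.099 to 0.14 for MBD3, -0.018 to 0.082 for MBD4, -0.045 to 0.20 for MBD5 and -0.23 to 0.092 for MBD6. MBD1 with differentiation in knockout cells was called without knockout replicate 2 before differentiation (0.29, adjusted p = 0.00484 by edgeR).

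Same-numbered libraries were not shown to be paired: in the 4 pairs of groups compared, the correlations of their deviations ran from -0.018 to 0.24, and no pair of groups had all 3 over 0.1. Between control before and knockout after differentiation, which were not compared, all 3 were (0.106, 0.108 and 0.251). Over all groups, 10 of 12 libraries correlated best with their own number, a hint from the data and not from the design. With a replicate block the members called were 3, 4, 8, 7 and 0 in the 5 comparisons, as without it. Over all genes tested the block raised the number called in each comparison. It gave 3491, 6137, 8030, 9992 and 2728 calls, beside 2958, 5687, 7529, 9563 and 2227 without it.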

Other observations

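Counts of the partner lists with differentiation stand beside 43.8% of all genes called in control and 55.7% in knockout cells, and are given as a description. In control cells 0 of 13 NuRD subunits rose and 7 fell (median log2 change -0.29), and in knockout cells 0 rose and 7 fell (median -0.30), beside medians of 0.0058 and 0.028 over all genes. Of 9 base excision repair genes, 0 rose and 2 fell in control cells, and 2 rose and 5 fell in knockout cells. Of 8 tested PR-DUB genes, 4 rose and 1 fell in control cells, and 3 rose and 1 fell in knockout cells. Of 5 MBD1 partners, 3 rose and 0 fell in each genotype. Of 10 corepressors and partners of the zinc finger members, 3 rose and 5 fell in control cells, and 3 rose and 4 fell in knockout cells. Of the 4 tested MBD-domain genes outside the family described, 3 rose and 1 fell in control cells, and 2 rose and 1 fell in knockout cells. The interaction contrast, in which 13% of all genes were called, called 2 of 13 NuRD subunits and 1 of 8 PR-DUB genes. These were MTA3 (-1.22 ± 0.25), CDK2AP1 (-0.74 ± 0.17) and ASXL1 (0.41 ± 0.11), named after their values were seen (difference of knockout effects, log2 scale).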
